A study of Rattus norvegicus with 11 samples.

Results

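The complement components and receptors described here are the 9 genes Cfp, Cfd, Cfb, C3, C5ar1, C3ar1, C1qa, C1qb and C1qc, taken by their gene symbols from a table of 32623 gene rows in rat peripheral leukocytes. They stood on 10 rows, because Cfb was listed on 2. All 11 samples came from Wistar rats, males of 7 weeks by the study's methods, and were sequenced as poly(A) RNA after lysis of the red blood cells. The normal group held 3 healthy rats. The other 8 samples came from 4 rats with collagen-induced arthritis (CIA), a model in which an injection of type II collagen in incomplete Freund's adjuvant (IFA-CII), boosted on day 7, leads to arthritis. Every CIA rat was bled at Nampt++ status near day 8 and again at Nampt+ status near day 14, the statuses having been assigned from a PCR of the NAD+ synthesis gene Nampt. The status and the day of sampling changed together and cannot be told apart. Since peripheral leukocytes are a mixture, fewer cells of a type and less RNA per cell cannot be told apart either.

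Complement is a cascade of plasma proteins that marks targets, attracts leukocytes and lyses membranes. The classical pathway starts when C1q, a complex of the chains encoded by C1qa, C1qb and C1qc, binds antibody. In the alternative pathway, factor D (Cfd) cleaves factor B (Cfb) bound to C3b, and properdin (Cfp) stabilizes the resulting C3 convertase. Cleavage of C3 and C5 releases the peptides C3a and C5a, which are sensed by C3ar1 and C5ar1 on myeloid cells. Most C3 in plasma is made by the liver, whereas properdin comes largely from leukocytes and C1q from macrophages and dendritic cells. Complement activation by immune complexes in the joint is a known part of this arthritis model.

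Total counts per library ranged from 65340027 to 85819418, and 11 haemoglobin genes took 6.84% to 42.8% of them. Nampt overlapped among the groups, in FPKM (counts scaled by transcript length and library total), with 13.5 to 32.9 in normal rats, 10.1 to 46.5 at Nampt++ status and 11.4 to 36.9 at Nampt+ status. Within rats Nampt was lower at Nampt+ status in rats 1 and 3, but higher in rat 2 (14.3 against 10.1 FPKM) and rat 4 (36.9 against 30.6), and the Nampt++ sample of rat 2 lay below every normal rat, so that the RNA levels did not follow the labels of status in 2 of 4 rats. The extraction protocol in the labels speaks of retinas, but Crx, Nrl and Rcvrn, which define photoreceptors, were at 0 in all 11 libraries. A mean of at least 1 FPKM was reached by 0 of 9 retina markers and by 12 of 14 neutrophil markers. The retina marker Sag reached 1.86 FPKM in normal rat 3. The Nampt++ sample of rat 1 stood apart, with 1072 FPKM of the neutrophil receptor Csf3r against 42.4 to 283 in the other 10 libraries, and normal rat 2 was the highest of the normal rats in 13 of 14 neutrophil markers and in 8 of the 13 monocyte markers counted in normal rats, and the lowest in 2 of the latter. The fitted differences of the members without either library are given beside or after those with them.

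Per transcript length, the leukocytes carried mostly Cfp and C5ar1, less C3 and Cfd, little C3ar1 and Cfb, and hardly any C1q. Averaged over the 11 samples, the level was 109 FPKM for Cfp, 83.5 for C5ar1, 27.0 for C3, 24.4 for Cfd, 6.49 for C3ar1 and 2.82 for Cfb, its rows summed. C1qc, C1qa and C1qb followed with 0.0809, 0.0612 and 0.0387 FPKM. Neighbours in this order overlapped in their ranges over the samples, except Cfb and C1qc. C5ar1 exceeded C3 in 11 of 11 samples, while Cfp exceeded C5ar1 in 9 of 11.

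In all, 3 comparisons were made, each over all genes with a mean of at least 1 FPKM, by the quasi-likelihood test of edgeR. To be called, a gene needed both an unadjusted p under 0.05 and mean FPKMs in a ratio over 2 or under 0.5, the thresholds of the study. Between Nampt+ and Nampt++ samples 0.642% of 11219 genes were called, between Nampt++ samples and normal rats 0.686% of 11219, and between Nampt+ samples and normal rats 0.497% of 11269. No gene passed an adjusted p of 0.05 by this test (0% in each comparison), although 256, 176 and 98 genes had an unadjusted p under 0.05, and DESeq2 passed 5, 5 and 4 genes. Groups did not overlap in 0.41%, 1.1% and 0.444% of the genes tested. These shares are the background of the counts below at these settings.

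Of the 10 rows of the complement genes, 6 were abundant enough to be tested in each comparison, namely Cfp, Cfd, C3, C5ar1, C3ar1 and 1 row of Cfb, which was ENSRNOG00000051158 in the comparisons with Nampt++ samples and ENSRNOG00000000419 between Nampt+ samples and normal rats. Called were 1 of 6 between Nampt+ and Nampt++ samples, which was a row of Cfb described below, 0 of 6 between Nampt++ samples and normal rats, and 0 of 6 between Nampt+ samples and normal rats. DESeq2 and limma gave the same numbers of calls. In the last 2 comparisons none of the 6 rows had an unadjusted p under 0.05 in edgeR or DESeq2, while limma gave 1 and 0. All 6 fitted differences were positive in Nampt++ samples against normal rats, with a median log2 fold change of 0.78 against 0.00 over all genes tested. They were also positive in Nampt+ samples against normal rats (median 0.43 against -0.00), although summed Cfb was not (-0.48 ± 0.69), and negative in Nampt+ against Nampt++ samples (median -0.51 against -0.00). The comparisons share samples, and the genes moved partly together across rats, so that these counts of signs are not independent.

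**Figure D1:**
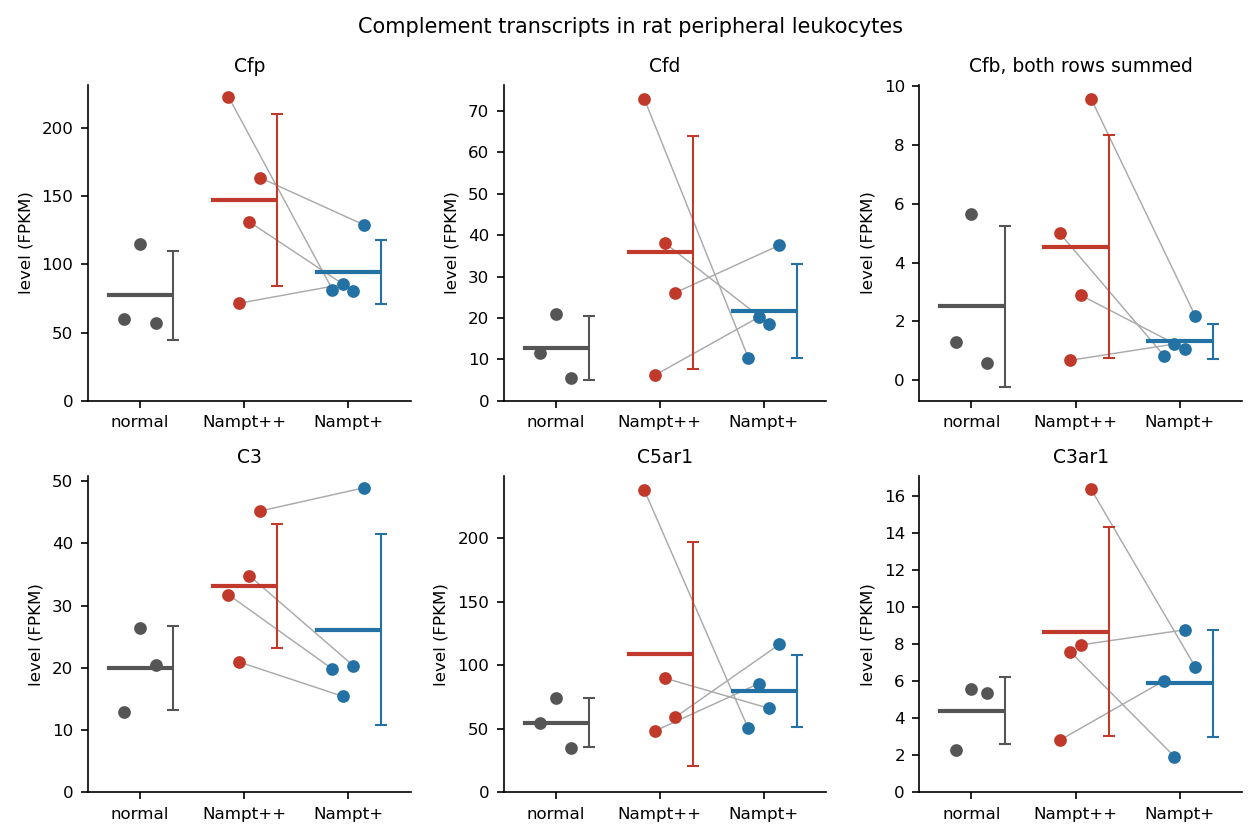
Level (FPKM, linear axis) of 6 complement genes in each of the 11 samples, by group. Points are samples, horizontal bars group means, vertical bars 1 SD, and grey lines join the samples of one CIA rat. The groups overlap in every panel, and the Nampt++ sample of rat 1 is the highest of all for Cfp, Cfd and C5ar1 but among the lowest for C3ar1.

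Of the alternative pathway, properdin (Cfp, ENSRNOG00000025811, listed on chromosome X from 1311121 to 1316682) was the most abundant transcript. It measured 60.3, 115 and 56.8 FPKM in normal rats 1 to 3. Nampt++ samples of rats 1 to 4 held 223, 71.5, 131 and 164 FPKM, and their Nampt+ samples 81.5, 85.4, 80.5 and 129. The 3 high Nampt++ samples lay above every normal rat, whereas rat 2 lay among them, and the Nampt+ values were close together except for rat 4. The means were 77.4 ± 32.7 (SD, n = 3) in normal rats, 147 ± 63.2 (n = 4) at Nampt++ status and 94.1 ± 23.4 (n = 4) at Nampt+ status. At Nampt++ status Cfp thus had, against normal rats, a fitted log2 fold change of 0.74 ± 0.47 (SE, edgeR adjusted p = 1.00) and an exact permutation p of 0.114. Without normal rat 2 this difference was called, at a log2 fold change of 1.42 with an unadjusted p of 0.00858. Over all genes, 462 of 11303 were called without that rat, against 77 of 11219 with it. Without normal rat 3 the log2 fold change of Cfp in this comparison was 0.43, the lowest on leaving out 1 sample. From Nampt++ to Nampt+ status Cfp was lower in 3 of 4 rats, with a log2 fold change of -0.47 ± 0.33 (edgeR adjusted p = 1.00).

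Cfd (ENSRNOG00000033564, chromosome 7 from 12634216 to 12635943), the protease that activates factor B, varied over a wider range. Normal rats measured 11.6, 20.9 and 5.57 FPKM. At Nampt++ status rats 1 to 4 measured 72.9, 6.17, 38.0 and 26.1 FPKM, and at Nampt+ status 10.5, 20.2, 18.6 and 37.6. Rat 1 held the highest level of all at Nampt++ status and a level within the normal range at Nampt+ status, while rats 2 and 4 moved the other way. The means were 12.7 ± 7.72 (n = 3), 35.8 ± 28.0 (n = 4) and 21.7 ± 11.4 (n = 4) FPKM in normal rats, Nampt++ and Nampt+ samples. The ratio of 2.83 between Nampt++ samples and normal rats passed the fold threshold but not the test, with a log2 fold change of 1.25 ± 0.81 and an exact permutation p of 0.229. Without the Nampt++ sample of rat 1 the ratio was 1.85, which did not pass, and the log2 fold change 0.68. Without normal rat 2 they were 4.18 and 2.09 (unadjusted p = 0.0541). Without the Nampt++ sample of rat 1, the difference between Nampt+ and Nampt++ samples turned from -0.55 to 0.018 on the log2 scale. Without normal rat 2, Cfd was called higher in Nampt+ samples than in normal rats (log2 fold change 1.53, unadjusted p = 0.047), against 0.69 ± 0.65 with it. Over all genes, 136 of 11350 were called in this comparison without that rat, against 56 of 11269 with it. Without normal rat 3 the log2 fold change of Cfd in this comparison was 0.26, the lowest on leaving out 1 sample.

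Cfb is given with its rows apart, since the only call among the complement genes was of 1 of them. ENSRNOG00000000419 was listed on chromosome 20 from 4536203 to 4561066 and ENSRNOG00000051158 from 4536212 to 4542073, on the same strand, and all 5862 bases of the latter lie inside the former. The longer row also covers 18727 of the 18813 bases of the neighbouring complement gene C2. ENSRNOG00000051158 had 0 counts in 7 libraries and held 83.9% to 98.7% of the Cfb counts in the other 4. These 4 were normal rat 2 with 1224 counts and the Nampt++ samples of rats 1, 3 and 4 with 988, 595 and 1598. All 4 Nampt+ samples, the Nampt++ sample of rat 2 and normal rats 1 and 3 were at 0, which allows up to 3 counts per library, counting error alone considered.

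The row ENSRNOG00000051158 was called lower at Nampt+ status (edgeR unadjusted p = 0.00476, adjusted p = 1.00, DESeq2 adjusted p = 0.103). Against a floor of 3 counts over the 4 Nampt+ libraries it was at least 1005-fold lower, counting error alone considered. That bound leaves aside how reads were divided between the rows. With both rows summed, the means were 1.33 FPKM at Nampt+ and 4.53 at Nampt++ status, a difference that was not called. The row ENSRNOG00000051158 passed the filter on low values only through the libraries in which it was counted. On the other row the direction was the opposite. ENSRNOG00000000419 held 13, 266, 114 and 141 counts at Nampt++ status in rats 1 to 4 and 282, 422, 406 and 765 at Nampt+ status, so that the groups did not overlap and 4 of 4 rats were higher at Nampt+ status, at 0.356 ± 0.273 against 1.33 ± 0.596 FPKM. It lay under the FPKM minimum in this comparison, so that the share of 0.41% of tested genes without overlap does not cover it. The exact permutation p of 0.0286 for this row is the smallest that 4 samples against 4 allow, and flipping the signs of the 4 rats' own differences, also an exact permutation, gave 0.125, the smallest it allows. Against normal rats neither row was called where it was tested, but leaving out 1 rat or the FPKM minimum changed this. Without normal rat 2, ENSRNOG00000051158 was called higher at Nampt++ status (unadjusted p = 0.0177), 1 of 462 genes called of 11303. Without normal rat 1, ENSRNOG00000000419 was called higher at Nampt+ status (log2 fold change 1.80, unadjusted p = 0.0128, against 1.01 ± 0.57 with that rat), 1 of 66 called of 11238. In these fits each row passed the FPKM minimum only through the group in which it was higher. Normal rats 1 and 3 were at 0 for ENSRNOG00000051158, and normal rats 2 and 3 held 0.257 and 0.600 FPKM of ENSRNOG00000000419. With no FPKM minimum, ENSRNOG00000000419 was called higher at Nampt+ than at Nampt++ status (log2 fold change 1.94 ± 0.73, unadjusted p = 0.0241, edgeR adjusted p = 0.963), and ENSRNOG00000051158 was called lower at Nampt+ status than in normal rats (unadjusted p = 0.0203, edgeR adjusted p = 1.00), where its 1224 counts were those of normal rat 2 alone. Over all genes, 295 of 19353 and 261 of 19339 were called in these comparisons at that setting.

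With both rows summed, Cfb had 451, 1332 and 238 counts in normal rats, 1001, 266, 709 and 1739 in Nampt++ samples and 282, 422, 406 and 765 in Nampt+ samples. The sum was lower at Nampt+ status in 3 of 4 rats, with means of 4.53 ± 3.79 and 1.33 ± 0.596 FPKM (n = 4 each) against 2.52 ± 2.73 (n = 3) in normal rats. Its log2 fold change of -0.77 ± 0.54 was not called (unadjusted p = 0.187, edgeR adjusted p = 1.00), and the exact permutation p was 0.2. Both the call of the one row and the shift of the other were thus lost in the sum. How reads were divided between overlapping genes is not given in the sources used here, and its part in the difference between the rows was not tested.

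**Figure D2:**
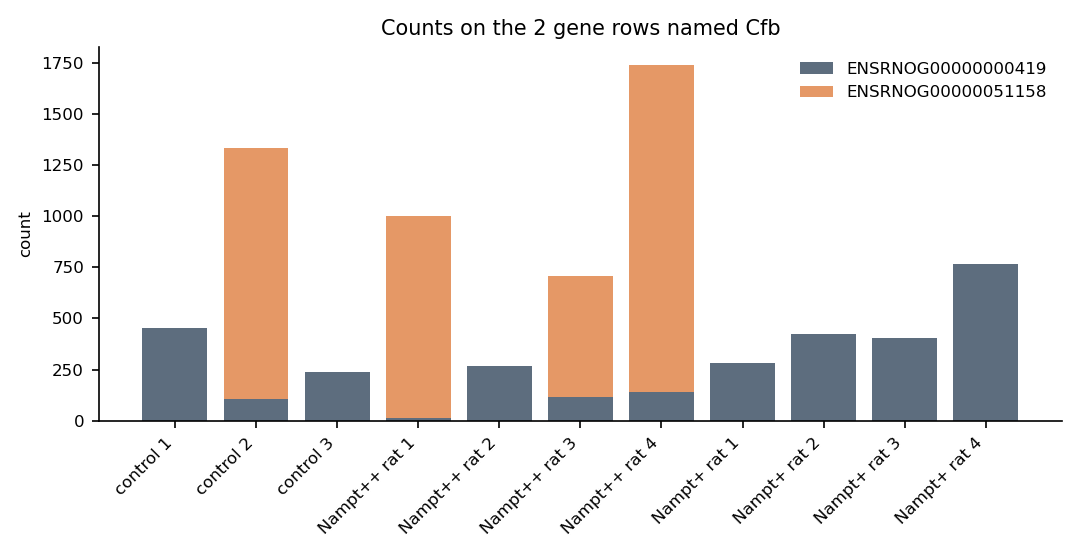
Counts (linear axis) on the 2 rows named Cfb in each library, stacked. Orange, the row ENSRNOG00000051158, appears in 4 libraries and in none of the 4 Nampt+ samples, whereas grey, the row ENSRNOG00000000419, is lowest at 13 counts in the Nampt++ sample of rat 1.

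C3 (ENSRNOG00000046834, chromosome 9 from 9721105 to 9747167) is the protein on which all pathways converge. Normal rats measured 13.0, 26.4 and 20.5 FPKM, Nampt++ samples 31.8, 21.0, 34.8 and 45.2, and Nampt+ samples 19.8, 15.4, 20.4 and 48.9. Rat 4 held the highest level at each status, and 3 of 4 Nampt++ samples lay above every normal rat. The mean of 33.2 ± 9.97 FPKM (n = 4) at Nampt++ status was 1.66 times that of 20.0 ± 6.76 (n = 3) in normal rats, with a log2 fold change of 0.60 ± 0.36 and an exact permutation p of 0.114. This log2 fold change was 0.35 without normal rat 1 and 1.13 without normal rat 2, then with an unadjusted p of 0.00377 but a ratio of 1.98, just under the fold threshold. At Nampt+ status the mean was 26.1 ± 15.4 FPKM (n = 4). Of the hepatocyte markers Alb, Apoh, Fgb, Serpina1 and Ttr were at 0 in all libraries, and the summed list of 6 reached 0.109 to 0.858 FPKM.

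The anaphylatoxin receptors did not move together. C5ar1 (ENSRNOG00000047800, chromosome 1 from 78186776 to 78195328), the C5a receptor, measured 54.9, 74.0 and 35.3 FPKM in normal rats, 238, 48.2, 89.9 and 59.3 in Nampt++ samples and 50.4, 85.5, 66.2 and 117 in Nampt+ samples. The Nampt++ sample of rat 1 stood far above the other 10, and the groups overlapped. Between the statuses C5ar1 was lower in rats 1 and 3 and higher in rats 2 and 4, with means of 109 ± 88.0 and 79.6 ± 28.5 FPKM (n = 4 each) against 54.7 ± 19.3 (n = 3) in normal rats. The log2 fold change of Nampt+ against Nampt++ samples was -0.25 ± 0.54, and 0.41 without the Nampt++ sample of rat 1. Against normal rats it was 0.82 ± 0.62 at Nampt++ status, 0.16 without that sample, and 0.56 ± 0.52 at Nampt+ status.

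C3ar1 (ENSRNOG00000009211, chromosome 4 from 155684029 to 155690869), the C3a receptor, measured 2.31, 5.55 and 5.35 FPKM in normal rats. The Nampt++ samples held 2.82, 7.58, 7.95 and 16.3 FPKM and the Nampt+ samples 6.02, 1.93, 8.76 and 6.77. Here rat 1 was the lowest of the Nampt++ samples and rat 4 the highest of all. The means were 4.41 ± 1.82 (n = 3), 8.67 ± 5.62 (n = 4) and 5.87 ± 2.87 (n = 4) FPKM in normal rats, Nampt++ and Nampt+ samples. The log2 fold change of Nampt++ samples against normal rats was 0.88 ± 0.57 and was not called, but it was called without the Nampt++ sample of rat 1, at 1.17 (unadjusted p = 0.0315). In that fit 86 of 11208 genes were called over all. Between the statuses the log2 fold change of C3ar1 was -0.58 ± 0.45, and it was lower in 2 of 4 rats. The ratio of C5ar1 to C3ar1 per length ranged from 3.63 in the Nampt++ sample of rat 4 to 84.5 in that of rat 1.

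Most differences from normal rats were larger without normal rat 2. Without it the log2 fold changes at Nampt++ status were 1.33 for C5ar1 and 1.36 for C3ar1, neither called, and those at Nampt+ status were 0.93 for Cfp (unadjusted p = 0.0394, ratio 1.61), 0.83 for C3, 1.08 for C5ar1 and 0.76 for C3ar1, none called, whereas that of the Cfb row ENSRNOG00000000419 was 0.67. Without the Nampt++ sample of rat 1, Cfp differed by 0.50 from normal rats at Nampt++ status, C3 by 0.64 and the Cfb row ENSRNOG00000051158 by 0.60 on the log2 scale, none called. Between Nampt+ and Nampt++ samples the values without that sample were -0.24 for Cfp, -0.33 for C3 and -0.88 for C3ar1 (unadjusted p = 0.0175), whose ratio of 0.553 did not pass the fold threshold.

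**Figure D3:**
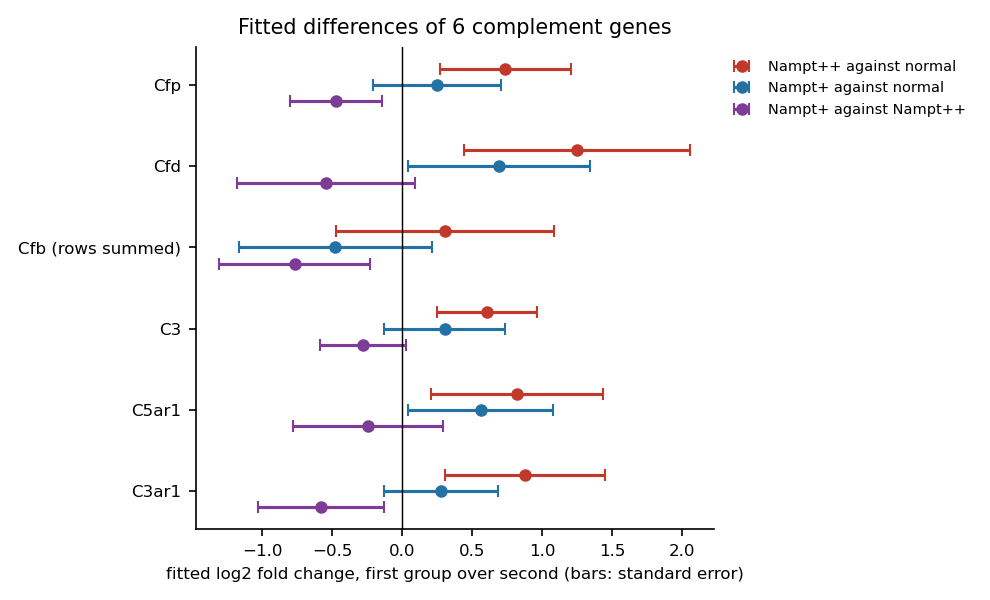
Fitted log2 fold change of 6 complement genes in the 3 comparisons (edgeR, Cfb with its rows summed), with bars of 1 standard error. Differences of Nampt++ samples against normal rats lie between 0.30 and 1.25 and those of Nampt+ against Nampt++ samples between -0.77 and -0.24, and none was called.

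Across the 11 samples C5ar1 followed the neutrophil receptor Csf3r, and C3ar1 followed Cd68, a lysosomal protein of monocytes and macrophages. Both markers were singled out after the values were seen, and Cd68 was the gene most like C3ar1 of the 11236 compared below. Pearson's r of log2(FPKM + 1) was 0.97 between C5ar1 and Csf3r (Spearman's rho 0.95), and 0.89 without normal rat 3 and the Nampt++ sample of rat 1, which lay farthest out in Csf3r. Between C3ar1 and Cd68 it was 0.97 (rho 0.96), and 0.97 without the 2 samples farthest out in Cd68, rat 4 at Nampt++ and rat 2 at Nampt+ status. C3ar1 had an r of -0.33 with Csf3r, and C5ar1 one of -0.26 with Cd68. Cfd had an r of 0.92 with Csf3r. As a single gene, Lyz2, made up 92.0% to 97.8% of the summed monocyte list, the lists were taken by the mean of log2(FPKM + 1) over their 14 genes. With the neutrophil list r was then 0.91 for Cfd, 0.86 for C5ar1, 0.81 for Cfp, 0.44 for C3 and -0.25 for C3ar1. With the monocyte list it was 0.92 for C3ar1, 0.68 for C3, 0.35 for Cfp, 0.15 for Cfd and -0.15 for C5ar1. On the sum, which is nearly Lyz2 alone, the monocyte values were 0.30 for C3ar1, 0.80 for C3, 0.81 for Cfp, 0.86 for Cfd and 0.70 for C5ar1, so that they turn on how the list is summarised. These correlations are a description over samples of which 8 are pairs from 4 rats, and the share of haemoglobin counts moved with the levels as well, with r from -0.35 for C5ar1 to -0.69 for C3. The part of cell composition and of haemoglobin in the differences between groups was not tested.

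**Figure D4:**
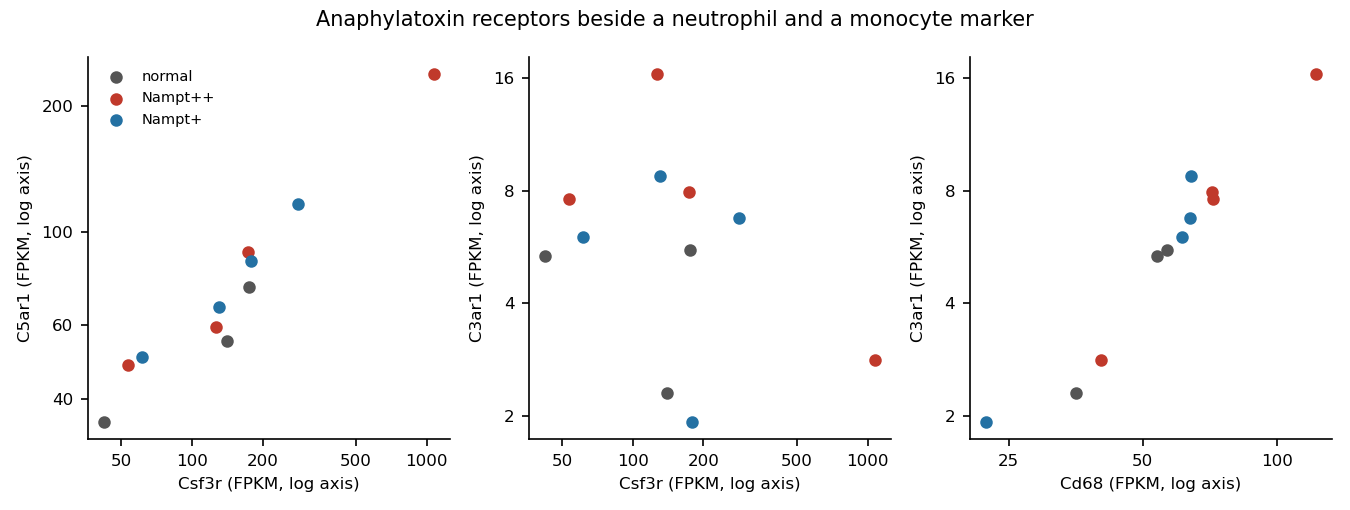
C5ar1 or C3ar1 against Csf3r or Cd68 (FPKM, log axes) in the 11 samples, coloured by group. C5ar1 rises with Csf3r (r = 0.97) and C3ar1 with Cd68 (r = 0.97), while C3ar1 and Csf3r have an r of -0.33.

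The genes most like each member were taken from 11236 genes with a mean of at least 1 FPKM, by the highest r over the 11 samples. For C5ar1 they were Alox5ap (r = 0.99), which serves leukotriene synthesis, Zfp532 and Lilrb3a (both 0.98). For Cfd they were Trem3 (0.99), Grn and Ctsf (both 0.98), and for Cfp Cyba (0.98), a subunit of the phagocyte NADPH oxidase and Slc11a1 (0.97). C3 was most like Prkcd (0.95) and Vcan (0.94), C3ar1 like Cd68 (0.97), Anxa5 and Slc38a6 (both 0.95), and summed Cfb like Zfand5 (0.97), Socs3 and Sh3bp2 (both 0.96). Being the highest of so many, these values are larger than any single pair chosen beforehand would give on average. The third gene for C3, AABR07071838, had an r of 0.90. No such genes are given for the C1q chains, whose counts were too few.

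Among the members themselves the closest pairs were C5ar1 with Cfd (r = 0.92) and Cfp with Cfd (r = 0.90). Without the 2 samples farthest out in C5ar1 or Cfp these values were 0.85 and 0.89, and on TMM-scaled counts 0.91 and 0.91. C5ar1 and C3ar1 had an r of -0.29. Because Cfp and Cfd moved together and C3ar1 did not follow C5ar1, the promoter windows of Cfp, Cfd and C3ar1 are shown, from 250 bases before to 50 bases from the start of the gene, as RefSeq gives them on GRCr8, which is not the build of the positions above. Windows were found for 6 of the 9 genes, and none was found for Cfb, C5ar1 and C1qc. Capitals mark matches on either strand to the short motifs TGACTCA (AP-1 type), TTGCNNAA (C/EBP type), GAGGAA (PU.1 type) and TTCNNNGAA (STAT type). The windows lie at chrX:3715301-3715600 on the plus strand, chr7:10465447-10465746 on the minus strand and chr4:157756481-157756780 on the minus strand.
Cfp: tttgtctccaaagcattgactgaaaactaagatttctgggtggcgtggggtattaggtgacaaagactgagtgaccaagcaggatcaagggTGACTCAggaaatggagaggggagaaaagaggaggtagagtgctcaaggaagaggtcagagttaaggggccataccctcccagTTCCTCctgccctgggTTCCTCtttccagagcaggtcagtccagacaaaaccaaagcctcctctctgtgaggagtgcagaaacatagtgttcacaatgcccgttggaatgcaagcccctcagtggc
Cfd: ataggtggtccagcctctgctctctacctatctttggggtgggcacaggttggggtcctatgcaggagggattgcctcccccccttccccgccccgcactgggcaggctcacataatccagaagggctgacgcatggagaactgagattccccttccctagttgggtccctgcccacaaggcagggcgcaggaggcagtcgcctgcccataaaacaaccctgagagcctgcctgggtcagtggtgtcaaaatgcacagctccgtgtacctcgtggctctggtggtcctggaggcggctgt
C3ar1: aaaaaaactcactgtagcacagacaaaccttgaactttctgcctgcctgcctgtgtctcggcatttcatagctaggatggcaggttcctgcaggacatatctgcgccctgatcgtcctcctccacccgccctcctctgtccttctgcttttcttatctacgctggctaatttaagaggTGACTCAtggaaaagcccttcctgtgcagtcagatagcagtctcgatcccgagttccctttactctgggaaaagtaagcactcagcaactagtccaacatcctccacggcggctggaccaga

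TGACTCA stood in the windows of Cfp and C3ar1, at bases 92 and 179 of the 300, and in 4.63% of all 33469 windows. Cfp also held GAGGAA in reverse at 2 places, a motif found in 27.6% of windows. The window of Cfd held none of the 4 motifs, which says only that these letters are not in it. Of the windows not shown, that of C3 held TTGCNNAA once, a motif of 10.6% of windows, that of C1qa held TTCNNNGAA, of 8.87%, and that of C1qb held GAGGAA, once on each strand.

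The C1q chains (C1qa, C1qb and C1qc, neighbours on chromosome 5) were at the edge of detection. Normal rats held 86, 19 and 12 counts of the chains together, Nampt++ samples 12, 41, 0 and 0, and Nampt+ samples 0, 0, 0 and 4. Counts were thus found in 3 of 3 normal rats, 2 of 4 Nampt++ samples and 1 of 4 Nampt+ samples, and all chains were counted together only in normal rat 1. In total 117 counts of 238784791 fell on the chains in normal rats, 53 of 307448038 at Nampt++ status and 4 of 291324352 at Nampt+ status, or 0.49, 0.172 and 0.0137 CPM (counts scaled to a common library total). A library at 0 allows up to 3 counts, or 0.0351 to 0.0459 CPM in the 5 libraries concerned, counting error alone considered.

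The Nampt+ samples lay below every normal rat in the summed chains, at 0.0119 against 0.455 FPKM in the mean. The exact permutation p of 0.0571 is the smallest that 4 samples against 3 allow, and the chains were summed after their values were seen. Without normal rat 1, which held 86 of the 117 counts, the groups still did not overlap, with 31 counts in the remaining 2 normal rats. The exact permutation p was then 0.133, the smallest that 4 samples against 2 allow. No C1q row was tested at the minimum of 1 FPKM. Without that minimum C1qb and C1qc were called lower in Nampt+ samples than in normal rats (unadjusted p = 0.0314 and 0.0212, edgeR adjusted p = 1.00), and C1qb lower in Nampt++ samples than in normal rats (unadjusted p = 0.0305). Over all genes, 261 of 19339 and 306 of 19298 were called in these comparisons at that setting. Against a floor of 3 counts over the 4 Nampt+ libraries, C1qb was at least 15.0-fold lower than in the pooled normal rats. For C1qc this bound was 21.6-fold. Normal rat 2 had no count of C1qb and normal rat 3 none of C1qc, so these bounds do not hold for every normal rat. Normal rat 1 held 25 of the 37 counts of C1qb and 34 of the 53 of C1qc, and without it these bounds were 6.97-fold and 11.03-fold. The tissue macrophage markers Cd163 and Marco were at 0 in all libraries, and the summed list of 9 ranged from 32.2 to 73.0 FPKM in normal rats and from 18.6 to 50.5 in Nampt+ samples. The sum was mostly Slc40a1, listed on 2 rows, and Hmox1, with 12.4, 10.9 and 45.3 FPKM in normal rat 2. Lyve1 measured 2.31 to 2.95 FPKM in normal rats and 2.03 to 6.79 in Nampt+ samples. The part of tissue macrophages in the C1q counts was not tested.

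**Figure D5:**
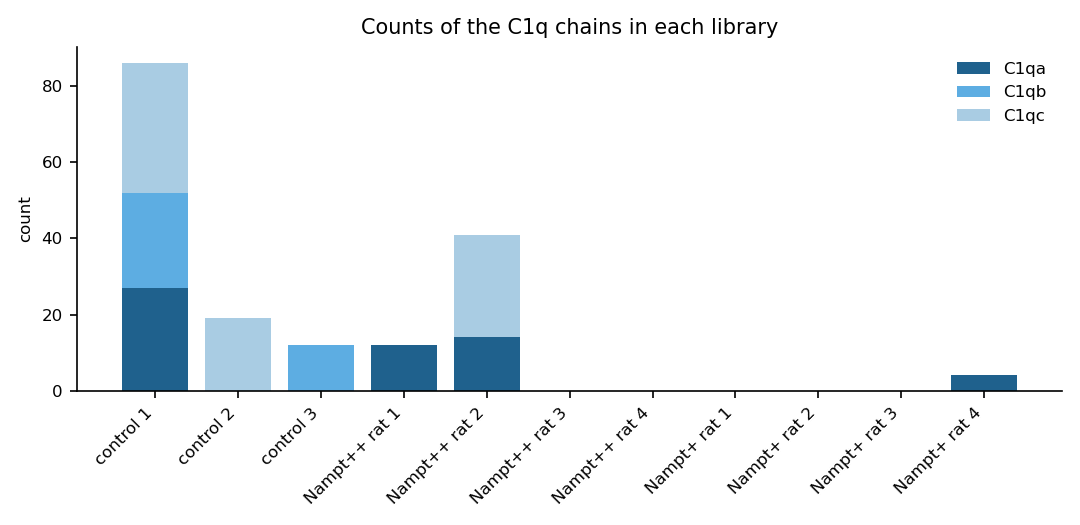
Counts (linear axis) of C1qa, C1qb and C1qc in each library, stacked. Normal rat 1 (control 1) holds 86 counts, 5 libraries hold none and the Nampt+ samples hold 4 counts in all.

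Of 51 other complement genes listed by symbol, 46 were found, 20 had a mean of at least 1 FPKM and were tested, and 9 had no count in any library. Abundant among them were Calr (232 FPKM over all samples), Clu, the integrin chain Itgb2 of the complement receptors, and the ficolin Fcnb, whereas C5, C6, C8a and C9 and the regulators Cfi and C4bpa were near or at 0. None of the 20 was called in any of the 3 comparisons with edgeR, DESeq2 or limma. At an unadjusted p under 0.05 edgeR gave 1, 0 and 0 of them, DESeq2 1, 1 and 0 and limma 0, 2 and 0, for Nampt+ against Nampt++ samples, Nampt++ samples against normal rats and Nampt+ samples against normal rats. Their median log2 fold change was -0.27, 0.41 and 0.09 in these comparisons, against about 0.00 over all genes.

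At Nampt++ status against normal rats the highest fitted differences included those of the protease-like C1rl (log2 fold change 1.04 ± 0.95) and the other C5a receptor C5ar2 (0.82 ± 0.70). The lowest were those of Cr2 (-0.74 ± 0.43), a complement receptor of B cells, Masp2 (-0.33 ± 0.25) and C1qbp (-0.20 ± 0.20). Between Nampt+ and Nampt++ samples C1rl at -0.77 ± 0.88 and C5ar2 at -0.72 ± 0.59 were lowest and Cr2 at 0.54 ± 0.29, Masp2 at 0.25 ± 0.23 and Calr at 0.03 ± 0.18 highest. The 2 comparisons share the Nampt++ samples, so that nothing is read from their signs. C1rl and C5ar2 were highest in the Nampt++ sample of rat 1, at 26.9 and 9.32 FPKM against at most 9.56 and 3.01 elsewhere. Against normal rats the Nampt+ samples differed by at most 0.40 ± 0.53, for Fcnb.

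Fcna, a ficolin that recognizes sugars of microbes, was singled out after its values were seen. It measured 2.44, 5.13 and 6.10 FPKM in normal rats, 6.77, 6.63, 6.90 and 11.7 in Nampt++ samples and 4.77, 3.22, 5.73 and 5.68 in Nampt+ samples. Nampt++ samples lay above all other samples, and Fcna was lower at Nampt+ status in 4 of 4 rats. Its ratio of 0.607 did not pass the fold threshold (log2 fold change -0.64 ± 0.19, unadjusted p = 0.00927, edgeR adjusted p = 1.00). Groups did not overlap for 1 of the 20 genes between Nampt+ and Nampt++ samples, against 0.41% of all genes tested. Between Nampt++ samples and normal rats they did not overlap for 2, Fcna and Lrp1, against 1.1%.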

How the data were processed

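Peripheral leukocytes of 3 normal rats and of 4 CIA rats at Nampt++ and at Nampt+ status were sequenced by the authors. Their deposited table holds whole-number counts per gene, not normalized, and FPKM values, the same counts scaled by transcript length and library total. Cutadapt 1.9, HISAT2 2.0.4 and StringTie 1.3.4 are named in the submitters' processing notes, whereas the genome build and how overlapping genes were counted are not given in the sources used here. An FPKM of 0.0001 stood for a count of 0 and was read as 0.

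Counts were compared with the quasi-likelihood test of edgeR 4.0.16 in R 4.3.3 with TMM normalization, for genes with a mean of at least 1 FPKM over the samples compared and with Benjamini-Hochberg adjustment over all of them. DESeq2 1.42.0 and limma 3.58.1 on log2(FPKM + 1) served as alternatives, and edgeR was tested on simulated data. Members were also compared by a two-sided exact permutation of log2(FPKM + 1), 33 comparisons in all, each unadjusted. The smallest p allowed is 0.0286 for 4 samples against 4 and 0.0571 for 4 against 3. Fold changes are of fitted counts, and ratios are of mean FPKMs. A floor of 3 counts bounds a value of 0. Nothing is known of separate extractions, and each rat at each status gave 1 library. The p-values thus measure the spread between libraries at these depths of 65340027 to 85819418 counts, in which rat, bleeding and preparation are not separated. The main fit of Nampt+ against Nampt++ samples took the samples of one CIA rat as independent. Their pairing entered only in the replicate block and in the sign flips within rats.

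The members, the 51 other complement genes and the 14 marker lists were chosen with earlier results of these data known. Named are all members, the other complement genes with the 3 highest and 3 lowest fitted differences in each comparison, and the 3 genes most like each member, of which a few are not reported here. Samples of one rat are paired by their labels, and the deviations of the pairs from their group means correlated with r of -0.27, -0.24, 0.23 and 0.09. No 2 samples of a group were alike within counting error (lowest chi-square per degree of freedom 271). Alternatives were 2 other scalings, no minimum and a minimum of 10 FPKM, haemoglobin genes left out, all groups in 1 fit, the rat or sample number as a replicate block, rows of a symbol summed, a pseudocount of 0.1 and each sample left out in turn. The summed C1q chains were added after seeing the data.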

Additional observations from a re-analysis of the deposited data

Results flagged for a closer look

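Among the members' FPKM values in each group of 4 samples, 4 values lay far from the other 3 by Dixon's gap test, which by chance flags about 1 in 20 groups, and 18 groups were examined. C3 measured 48.9 FPKM in the Nampt+ sample of rat 4 against 15.4 to 20.4 in the others, and Cfp measured 129 FPKM in the same sample against 80.5 to 85.4. C1qc measured 0.287 FPKM in the Nampt++ sample of rat 2, where the others were at 0, and C1qa measured 0.0475 FPKM in the Nampt+ sample of rat 4, where the others were at 0. In the last 2 groups, with 3 values at 0, the gap is the whole range by construction, so that the chance rate does not apply to them.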

How the results depend on the processing

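Between Nampt+ and Nampt++ samples the number of member rows called moved from 1 to 2 with no FPKM minimum, to 0 with a mean FPKM of at least 10 and to 0 with the rows of a symbol summed. In the sum the log2 fold change of Cfb was -0.77. With no FPKM minimum 1 row was called between Nampt++ samples and normal rats and 3 between Nampt+ samples and normal rats, from 0 each, and 1 other complement gene, Serping1, was called in each of 2 comparisons, Nampt+ against Nampt++ samples and Nampt+ samples against normal rats. Calls over all genes at that setting were 295 of 19353 between Nampt+ and Nampt++ samples. Against normal rats they were 306 of 19298 at Nampt++ status and 261 of 19339 at Nampt+ status. Leaving out 1 sample at a time left the 1 member row called between Nampt+ and Nampt++ samples in every case. That row was at 0 in all Nampt+ samples, so leaving out any of them kept the group at 0. Between Nampt++ samples and normal rats 0 to 2 rows were called, and 0 to 1 between Nampt+ samples and normal rats. For the other complement genes the ranges in the 3 comparisons, in the same order, were 0 to 1, 0 to 4 and 0 to 0. The 1 call between Nampt+ and Nampt++ samples arose without the Nampt++ sample of rat 2, and the 4 calls between Nampt++ samples and normal rats, C2, Cr2 and Fcnb among them, arose without normal rat 2. Calls over all genes rose in these fits too, from 72 of 11219 to 163 of 11258 and from 77 of 11219 to 462 of 11303.

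Leaving out 1 sample turned the direction of 5 fitted log2 fold changes, none of them called. Between Nampt+ and Nampt++ samples C5ar1 ranged from -0.62 to 0.41 and Cfd from -0.88 to 0.018, each turning without the Nampt++ sample of rat 1. Between Nampt+ samples and normal rats C3ar1 ranged from -0.044 to 0.76, Cfp from -0.055 to 0.93 and C3 from -0.024 to 0.83, turning without normal rat 1 for C3ar1, without normal rat 3 or the Nampt+ sample of rat 2 for Cfp and without the Nampt+ sample of rat 4 for C3. The Cfb row ENSRNOG00000000419 turned to -0.48 in this comparison when the rows were summed. The replicate block of the rat left the count of member rows called between Nampt+ and Nampt++ samples at 1 and changed no other call. Normal and CIA rats share only a number, and a block by it left the counts at 0. Other scalings, DESeq2, limma, haemoglobin left out and 1 fit of all groups changed no count of calls. Depth limits what is said of the C1q chains, at 0 to 86 counts per library. Its part in the other comparisons was not tested. The members' ratios without single libraries, the C1q bounds without normal rat 1 and the means over the marker lists were added after seeing the data.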
